A study of Saccharomyces cerevisiae with 8 samples.

Results

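The 9 genes described here carry the iron-sensing machinery of budding yeast, Saccharomyces cerevisiae: the low-iron transcription factor genes AFT1 and AFT2, the genes GRX3, GRX4, BOL2 and FRA1 of the complex that holds them in check, and the high-iron factor gene YAP5 with its targets CCC1 and TYW1. They were taken by name from a total of 5449 genes that the array reads, and the probe set of each gene was chosen by its mean brightness over all 8 arrays. All 9 have 1 probe set, none of which is marked as shared between transcripts, so brightness left nothing to choose. BOL2 is listed on the array under its older name FRA2. The genes were grouped with the iron response of these cultures already known, so that their shared pattern is described and not offered as evidence.

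Aft1 and Aft2 bind the promoters of iron uptake and mobilisation genes when iron is scarce. When iron is sufficient, the glutaredoxins Grx3 and Grx4, working with Bol2 and Fra1, pass an iron-sulfur cluster to them, and they leave the DNA. Yap5 senses iron-sulfur clusters itself and in high iron switches on CCC1, whose product stores iron in the vacuole, TYW1, which encodes an iron-sulfur enzyme of transfer RNA modification, and also GRX4.

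Total RNA was measured on 4 arrays of yeast that carried the plasmid pRS416TEF-Kir2.1-HA, for the inwardly rectifying mammalian potassium channel Kir2.1, and on 4 arrays of yeast with the vector pRSGPD426. The cultures grew at 26 °C in selective medium into mid-exponential phase, and the series calls its replicates biological, without giving the parent strain or saying whether replicates are separate transformants. Below, strain means only which plasmid the yeast carried. The control arrays alone are marked as re-analysed in the labels, and the plasmids differ in more than the channel, so these differences and Kir2.1 itself cannot be told apart. In RNA of a whole culture, a change in some cells and a smaller change in all of them cannot be told apart either. Levels below are on a log2 scale rebuilt from the authors' standardized scores, with the median gene of each array at 0. They serve to compare a gene between arrays, not 1 gene with another.

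Within both strains, the cultures stood in 2 separate states of the genes that Aft1 and Aft2 control. The mean deviation of 24 such target genes from their 8-array means was 1.33, -0.72, 1.42 and -0.98 in Kir2.1 replicates 1 to 4, against 1.05, -0.55, -0.92 and -0.63 in vector control replicates 1 to 4. Kir2.1 replicates 1 and 3 and vector control replicate 1 thus had high target levels, and no array lay between them and the other 5. FIT2, a cell wall mannoprotein gene of siderophore iron retention, stood at 4.34, -0.026, 4.37 and -0.65 in the Kir2.1 arrays and at 3.95, 0.0097, -0.67 and -0.25 in the vector control arrays. The reductive uptake pair moved less: FET3, the multicopper oxidase gene, stood at 3.67, 2.14, 3.71 and 1.09 in the Kir2.1 arrays, against 3.43, 2.44, 1.70 and 2.30 in the controls. The permease gene FTR1 stood at 2.91, 1.39, 2.99 and 0.48 in the Kir2.1 arrays, against 2.63, 1.63, 0.88 and 1.37 in the controls. In each of these genes, and in the siderophore transporter gene ARN1 (2.84, -0.62, 3.26 and -1.06 in the Kir2.1 arrays, 2.67, -0.22, -0.87 and -0.38 in the controls), the same 3 arrays were the highest. TIS11, whose product Cth2 promotes decay of messenger RNAs for iron-using proteins, stood at 2.47, -1.76, 2.45 and -2.44 in the Kir2.1 arrays, against 2.19, -0.69, -2.11 and -1.02 in the controls. TIS11 lay above the background on 5 of the 8 arrays, so its lowest levels are bounds. Because the arrays fall into separate clusters of 3 and 5, each too small for a correlation of its own, no correlation with the target level is given.

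AFT1 (YGL071W), the main activator of the iron regulon, was at 0.039, -0.80, 0.28 and -1.07 in the Kir2.1 arrays and at 0.17, -0.52, -0.80 and -0.76 in the vector control arrays. Its 3 highest values came from the 3 arrays with high target levels, and the values of the strains overlapped. A gap of 0.56 parted these 3 from the other 5. From its lowest to its highest array the AFT1 transcript spanned 1.35 on the log2 scale, 2.54-fold on the rebuilt scale. AFT2 (YPL202C), the weaker paralog, was at -1.73, -2.09, -1.75 and -1.99 in the Kir2.1 arrays and at -1.79, -1.99, -1.93 and -2.002 in the controls. The 3 high-target arrays were again on top, but by a gap of 0.13 and within a span of only 0.36. AFT2 is dim: it lay above the background, taken as the 95th percentile of the Schizosaccharomyces pombe probe sets of the array, on 2 arrays, Kir2.1 replicate 1 and vector control replicate 1. Its true span may therefore be larger than shown. Measured from the background of each array, Kir2.1 replicate 3 (-0.20) lay below vector control replicates 2 (-0.09) and 3 (-0.08). The order of AFT2 over the arrays is therefore uncertain.

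**Figure D1:**
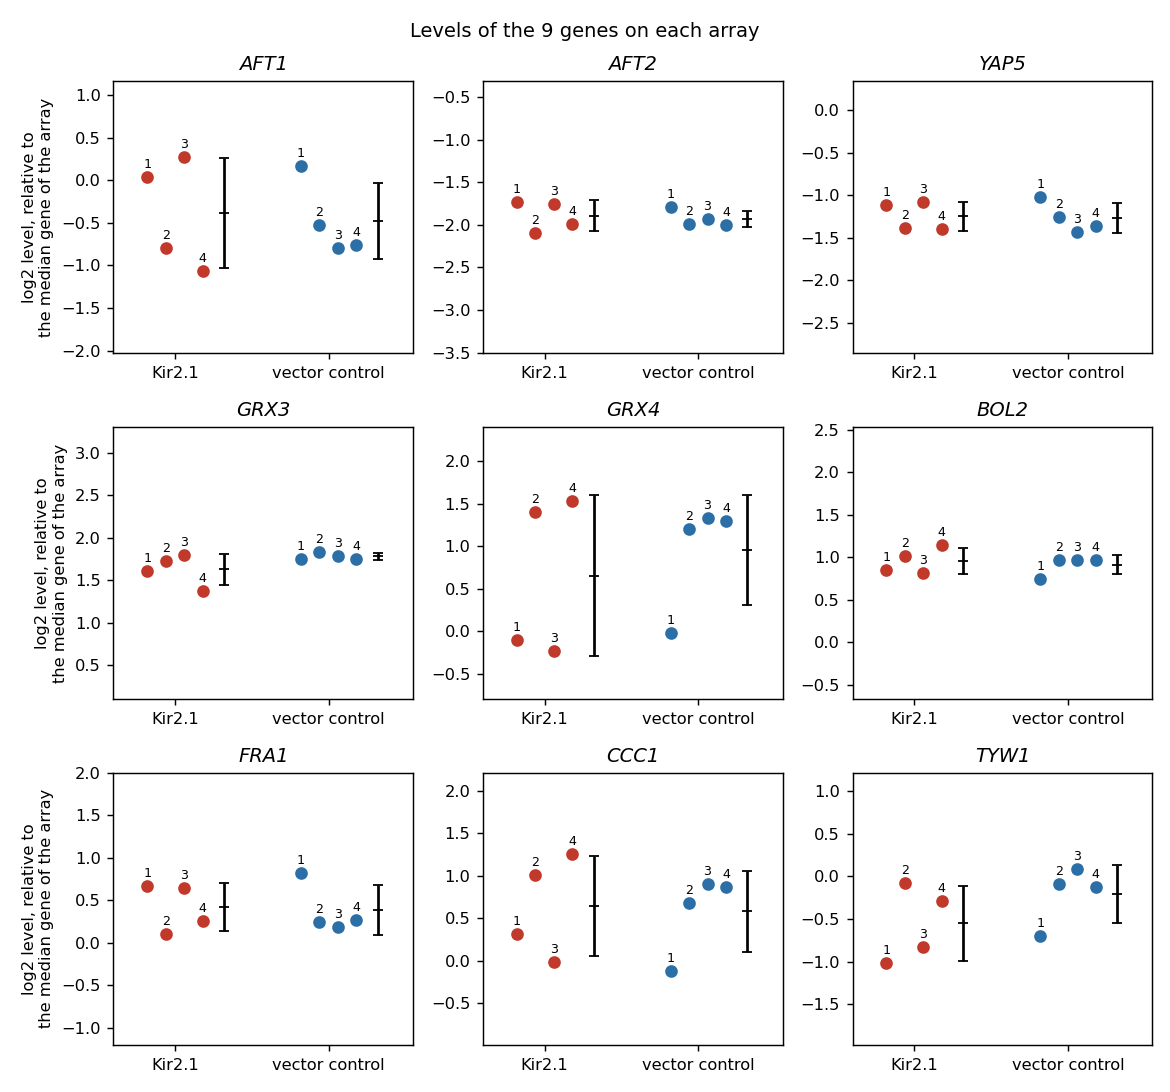
Log2 level of each gene relative to the median gene of its array (vertical axis, of the same height in every panel) in Kir2.1 arrays (red, left) and vector control arrays (blue, right). Numbers are replicates, and black bars give the mean and SD of the 4 arrays. GRX4, CCC1, TYW1 and AFT1 are split within both strains, while GRX3 stays between 1.38 and 1.83.

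Among the genes of the inhibitory complex, the paralogous glutaredoxin genes did not move together. GRX4 (YER174C) was at -0.10, 1.40, -0.23 and 1.53 in the Kir2.1 arrays and at -0.016, 1.20, 1.33 and 1.29 in the vector control arrays. The 3 arrays with high Aft target levels were the lowest, and a gap of 1.22 with no array in it parted them from the other 5. In the authors' deposited scores the same gene read -0.129, 0.440, -0.159 and 0.550 in the Kir2.1 arrays, against -0.0904, 0.393, 0.506 and 0.441 in the controls, so that the gap does not arise from the rebuilt log scale. GRX4 spanned 1.76, or 3.39-fold on the rebuilt scale.

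GRX3 (YDR098C), whose product shares the role of Grx4 in sensing, was at 1.61, 1.72, 1.79 and 1.38 in the Kir2.1 arrays and at 1.74, 1.83, 1.79 and 1.75 in the controls. It is the 1 gene of the 9 in which the high-target arrays were neither the 3 highest nor the 3 lowest. Its span was 0.46, with Kir2.1 replicate 4 lowest at 1.38 and Kir2.1 replicate 1 next at 1.61. Over the vector control arrays GRX3 spanned 0.09, while GRX4 spanned 1.35 over the same 4 arrays.

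BOL2 (YGL220W), for the BolA-like partner of the glutaredoxins, was at 0.86, 1.02, 0.81 and 1.14 in the Kir2.1 arrays, against 0.75, 0.97, 0.97 and 0.97 in the controls. It was lowest on the high-target arrays, in the same direction as GRX4 but by a gap of only 0.11 and within a span of 0.39. Measured from the background of each array, Kir2.1 replicate 1 (2.61) lay only just below vector control replicate 4 (2.64). FRA1 (YLL029W), for the aminopeptidase-like protein of this signal, was at 0.66, 0.10, 0.65 and 0.26 in the Kir2.1 arrays and at 0.82, 0.25, 0.19 and 0.27 in the controls. Its transcript ran the other way, highest on the 3 high-target arrays by a gap of 0.37, with a span of 0.72. Measured from the background, the FRA1 gap was much smaller, with Kir2.1 replicate 3 at 2.20 and vector control replicate 2 at 2.14. The genes of the complex therefore took 3 courses over the same cultures. GRX4 and, by little, BOL2 were lower where the Aft targets were high, FRA1 was higher, and GRX3 was in neither order. The sizes of the BOL2 and FRA1 gaps depend on the centring.

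In the Yap5 arm, the targets moved more than the factor as measured. YAP5 (YIR018W) was at -1.12, -1.38, -1.08 and -1.40 in the Kir2.1 arrays and at -1.03, -1.25, -1.43 and -1.36 in the controls. It was highest on the high-target arrays, but by a gap of only 0.14, and spanned 0.41. It lay above the background on all 8 arrays, but only by 0.31 to 0.82, so its true span may be larger than shown. Measured from the background of each array, vector control replicate 2 (0.639) was above Kir2.1 replicates 1 (0.637) and 3 (0.470). The order of YAP5 therefore depends on the centring. CCC1 (YLR220W), for the vacuolar iron importer, was at 0.31, 1.01, -0.010 and 1.25 in the Kir2.1 arrays, against -0.12, 0.68, 0.90 and 0.86 in the controls. TYW1 (YPL207W), of wybutosine synthesis on phenylalanine transfer RNA, was at -1.01, -0.072, -0.83 and -0.29 in the Kir2.1 arrays and at -0.70, -0.091, 0.082 and -0.12 in the controls. Both targets were lowest on the 3 high-target arrays, with gaps to the other 5 of 0.36 for CCC1 and 0.42 for TYW1. CCC1 spanned 1.37 (2.59-fold on the rebuilt scale) and TYW1 1.10 (2.14-fold). Transcript levels do not report how much iron-sulfur cluster Yap5 carried, which was not measured.

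**Figure D2:**
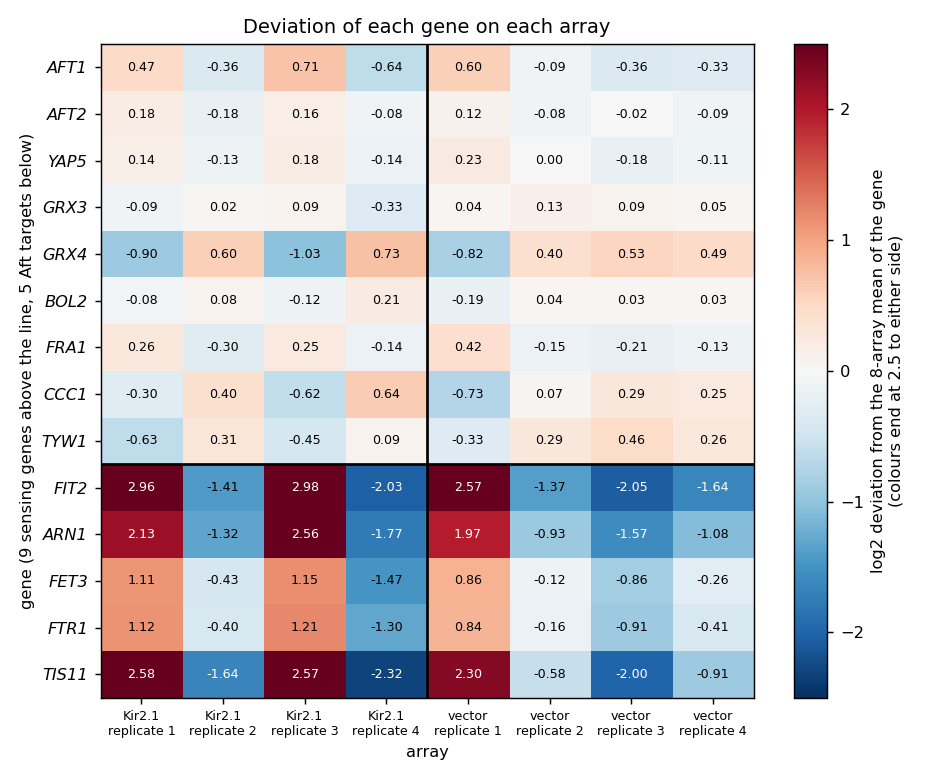
Log2 deviation of each gene (rows) from its own 8-array mean on each array (columns, Kir2.1 left of the line and vector control right of it). The 9 sensing genes stand above the horizontal line and 5 Aft targets below it. Kir2.1 replicates 1 and 3 and vector control replicate 1 share 1 pattern, red for AFT1, FRA1 and the targets and blue for GRX4, CCC1 and TYW1.

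Outside the 9 genes this division of the arrays is widespread. In 8 of the 9 genes the 3 high-target arrays were the 3 highest (AFT1, AFT2, YAP5 and FRA1) or the 3 lowest (GRX4, BOL2, CCC1 and TYW1), and the same held for 1913 of all 5449 genes, or 35.1%. AFT2 is counted here although it lay above the background on only 2 arrays, and YAP5 although its order depends on the centring. The 3 arrays are defined by the Aft targets, which this machinery controls, and the 9 genes were proposed with that pattern known, so nothing is read from the excess. The size of the span separates the genes more plainly. GRX4, CCC1, AFT1 and TYW1 spanned over 1 log2 unit, as did 6.13% of all genes, and their spans reached percentiles 99.0, 97.7, 97.5 and 95.3 of the spans of all genes. FRA1 reached percentile 84.1, whereas GRX3, YAP5, BOL2 and AFT2 lay between percentiles 42.3 and 60.2, near the median span of all genes of 0.40. AFT2 and YAP5 are dim, so their true spans may be larger.

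**Figure D3:**
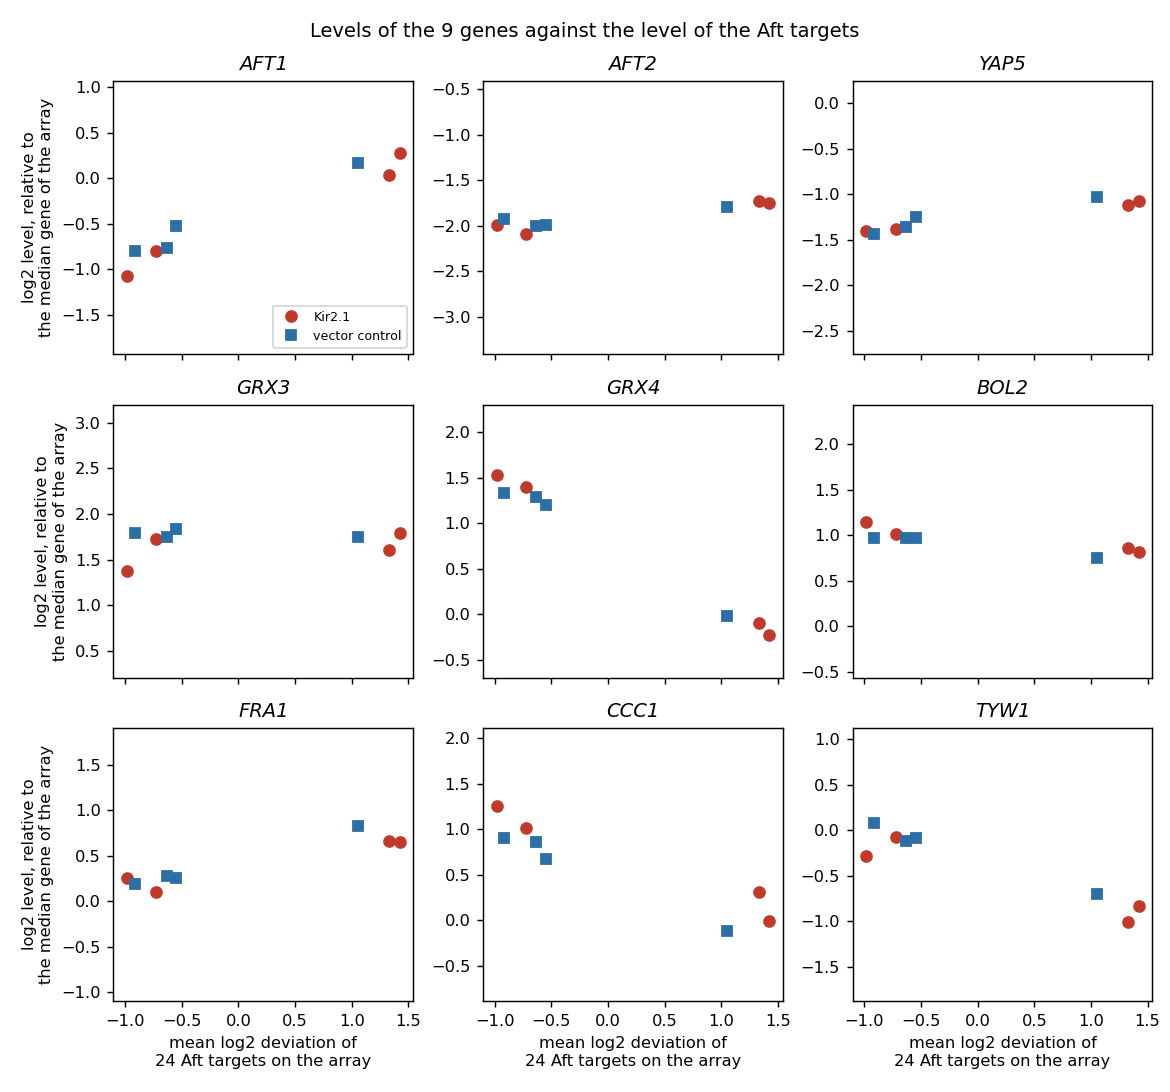
Log2 level of each gene relative to the median gene of its array (vertical axis, of the same height in every panel) against the mean log2 deviation of 24 Aft targets on the same array (horizontal axis), with Kir2.1 arrays as red circles and vector control arrays as blue squares. Arrays form a cluster of 5 at -0.98 to -0.55 and a cluster of 3 at 1.05 to 1.42. GRX4, CCC1 and TYW1 lie lower in the right cluster and AFT1 higher.

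**Figure D4:**
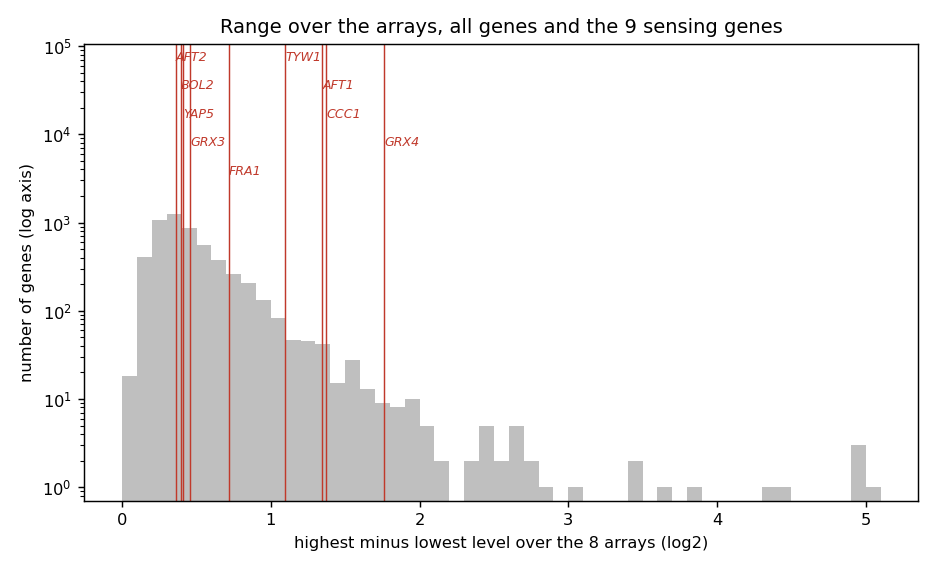
Number of genes (log axis) by the span of their level over the 8 arrays, highest minus lowest on the log2 scale, with red lines for the 9 sensing genes. GRX4 at 1.76 lies farthest right of the 9, and AFT2, BOL2, YAP5 and GRX3 lie near the median of all genes.

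No gene of the 9 passed the test between Kir2.1 and vector control yeast. The comparison asks whether expression of the sensing machinery differs between the strains, whose plasmids differ in more than the channel. In it, 0 of the 9 genes passed limma at an adjusted p under 0.05, as 0% of all genes did. The unmoderated test also passed 0 of 9. At an unadjusted p under 0.05 limma gave 0 of 9, against 8.35% of all genes, and in 0 of 9 were the values of the strains apart without overlap, against 6.59% of all genes. TYW1 averaged -0.55 ± 0.44 in Kir2.1 and -0.21 ± 0.34 in vector control arrays (SD, n = 4 each), a difference of -0.34 (SE 0.24, 95% interval -0.89 to 0.21, limma adjusted p = 0.711). GRX4 averaged 0.65 ± 0.94 in Kir2.1 and 0.95 ± 0.65 in vector control arrays, a difference of -0.30 (SE 0.48, adjusted p = 0.841). Its interval, from -1.41 to 0.80, leaves more than a 2-fold difference in the downward direction possible at this number of arrays.

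GRX3 averaged 1.63 ± 0.18 in Kir2.1 and 1.78 ± 0.04 in vector control arrays, a difference of -0.15 (SE 0.09, 95% interval -0.36 to 0.06, adjusted p = 0.694). The remaining 6 genes had differences between 0.02 for YAP5 and 0.09 for AFT1, with adjusted p from 0.872 to 0.951. Intervals were narrow for BOL2 (-0.16 to 0.25) and YAP5 (-0.24 to 0.28), and wide for AFT1 (-0.67 to 0.85) and CCC1 (-0.68 to 0.80). The AFT2 interval (-0.18 to 0.26) was also narrow. AFT2 lay above the background on only 2 arrays, so its interval does not bound a strain difference. In an exact two-sided permutation test over arrays, which cannot go below p = 0.0286 here, the smallest values were p = 0.143 for GRX3 and p = 0.229 for TYW1.

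The spread lay within the strains. GRX4 spanned 1.76 among the Kir2.1 arrays alone and 1.35 among the controls alone. CCC1 spanned 1.26 among the Kir2.1 arrays and 1.02 among the controls, and TYW1 0.94 among the Kir2.1 arrays and 0.79 among the controls. Strain accounted for 0.88% of the sum of squares of AFT1, 0.42% of CCC1 and 4.44% of GRX4, against a median of 11.6% over all genes. The share was above that median for TYW1 (19.9%) and GRX3 (30.8%). With array weights, which down-weight Kir2.1 replicates 2 and 4 (weights of 0.231 and 0.267) and vector control replicate 1 (0.372) and so set Kir2.1 replicates 1 and 3 mainly against the low-target controls, GRX4 (-1.11, adjusted p = 0.0225) and TYW1 (-0.75, adjusted p = 0.0192) passed as lower. That setting called 31.8% of all genes.

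When the Aft target level of each array was entered as a covariate, a fit chosen after the values were seen, CCC1 showed the largest strain difference of the 9. At equal target level it stood 0.31 higher in Kir2.1 yeast (SE 0.08, 95% interval 0.12 to 0.49, unadjusted p = 0.00462 in limma), which did not pass over all genes (adjusted p = 0.213). That fit called 0 of the 9 genes, and 0% of all genes. At an unadjusted p under 0.05 it gave 2 of the 9, CCC1 and AFT1, against 16.3% of all genes, a share close to the background. In the arrays, CCC1 was at 0.31 and -0.010 in the high-target Kir2.1 cultures, against -0.12 in the high-target control, and at 1.01 and 1.25 in the other Kir2.1 cultures, against 0.68, 0.90 and 0.86 in the other controls. AFT1 stood 0.17 lower in Kir2.1 yeast (-0.17, SE 0.07, adjusted p = 0.290) in the same fit, and the GRX4 difference was 0.08 (SE 0.05, adjusted p = 0.505). The target level was read from the same RNA, and the strains are compared for the targets below.

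**Figure D5:**
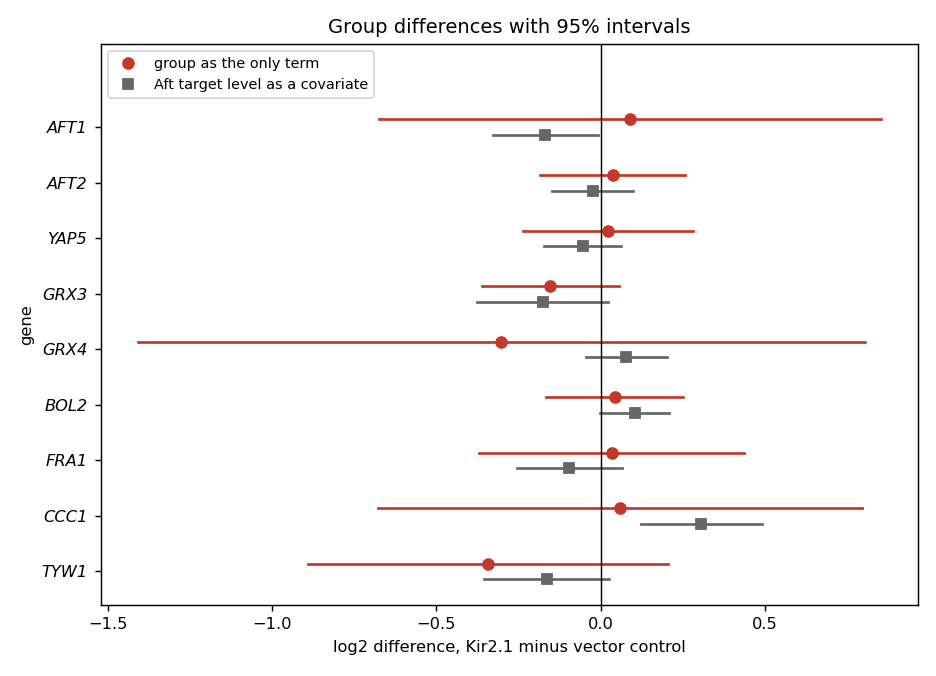
Log2 difference, Kir2.1 minus vector control (horizontal axis), with 95% intervals for the 9 genes (rows), from limma with group as the only term (red circles) and with the Aft target level as a covariate (grey squares). All 9 red intervals cross 0. The grey intervals of CCC1 and AFT1 do not, as for 16.3% of all genes, and neither gene passed over all genes.

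The pathway around these genes was read through lists, and in the strain comparison 0 of their 93 measured genes passed in either direction. All 24 Aft targets had a higher mean in Kir2.1 yeast, as had 3200 of all 5449 genes. Their median difference was 0.46 against 0.03 over all genes, while 2 of the 4 Kir2.1 cultures and 1 of the 4 control cultures were in the high state. Among them MRS4, for a mitochondrial iron importer, averaged 0.21 ± 0.52 in Kir2.1 and -0.28 ± 0.30 in vector control arrays (difference 0.49, SE 0.26, adjusted p = 0.658). FIT1 differed by 0.40 (SE 0.30, adjusted p = 0.711), and LSO1 lay within the background on all arrays. The targets spanned a median of 2.48 over the arrays, against 0.72 for the 9 sensing genes and 0.40 for all genes.

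Mitochondrial iron-sulfur cluster assembly and export, the source of the signal that reaches Aft1, comprised 16 genes with a median difference of -0.09. The scaffold gene ISU1 averaged 2.41 ± 0.37 in Kir2.1 and 1.89 ± 0.25 in vector control arrays (difference 0.52, SE 0.19, adjusted p = 0.568). The exporter gene ATM1 differed by -0.19 (SE 0.09, adjusted p = 0.628) and the desulfurase gene NFS1 by 0.12 (SE 0.06, adjusted p = 0.634). Of the 16 genes, 8 were lowest on the 3 high-target arrays, as were 18.4% of all genes, and 0 were highest there, as were 16.7% of all genes. GRX5, for the mitochondrial monothiol glutaredoxin and singled out after its values were seen, was at 1.18, 1.61, 1.12 and 1.57 in the Kir2.1 arrays and at 1.32, 1.63, 1.59 and 1.67 in the controls. The 3 high-target arrays were its lowest, as in GRX4 but not in GRX3. MRS3, for the other mitochondrial iron importer and likewise singled out, was at -0.39, 0.40, -0.89 and 0.39 in the Kir2.1 arrays, against -0.92, 0.16, 0.23 and 0.09 in the controls. It was low where its paralog MRS4 was high.

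Among 17 enzymes that hold an iron-sulfur cluster, as Tyw1 does, 13 were lowest on the same 3 arrays as TYW1, against 18.4% of all genes, and 0 were highest there, against 16.7%. Their median difference between strains was -0.14. LEU1, of leucine synthesis, averaged 2.26 ± 0.59 in Kir2.1 and 2.64 ± 0.42 in vector control arrays (difference -0.38, SE 0.31, adjusted p = 0.720). ELP3, of transfer RNA modification, differed by -0.26 (SE 0.20, adjusted p = 0.711), and RAD3, a DNA helicase gene, by -0.20 (SE 0.11, adjusted p = 0.656). Of the other 4 enzymes of wybutosine synthesis, PPM2 lay within the background on all 8 arrays, so its order over the arrays cannot be read. In 0 of the 4 did the 3 arrays stand at either end, against 35.1% of all genes, and 4 genes are too few to set against that share. The strain differences of the others were -0.10 for TRM5 (SE 0.12, adjusted p = 0.789), -0.11 for TYW3 (SE 0.08, adjusted p = 0.711) and 0.04 for TRM12 (SE 0.07, adjusted p = 0.850).

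In the list of cytosolic iron-sulfur assembly, which also depends on Grx3 and Grx4, 4 of 8 genes had the 3 arrays at an end, against 35.1% of all genes, and the median difference was -0.12. DRE2, of the electron transfer step, averaged 0.54 ± 0.22 in Kir2.1 and 0.68 ± 0.16 in vector control arrays (difference -0.14, SE 0.12, adjusted p = 0.736). Its partner gene TAH18 differed by -0.17 (SE 0.10, adjusted p = 0.694) and CIA1 by 0.12 (SE 0.06, adjusted p = 0.641). Among 7 other Yap factor genes, 1 had the 3 arrays at an end, as highest, against 16.7% of all genes. Their median difference was 0.12, with ARR1, of arsenic resistance, at 0.14 (SE 0.07, adjusted p = 0.627), YAP3 at 0.06 (SE 0.06, adjusted p = 0.755), and YAP6 above the background on only 1 array. YAP7 lay within the background on all 8 arrays, so 5 of the 7 genes were above it on at least 4 arrays.

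Of 8 other glutaredoxin, BolA and thioredoxin genes, 3 had the 3 arrays at an end, against 35.1% of all genes, and the median difference was 0.11. GRX6, for a glutaredoxin of the secretory pathway, was the 1 gene of the 93 in all lists whose strains did not overlap, where 6.59% of all genes did not, so the count is below the background. It averaged 0.40 ± 0.05 in Kir2.1 and 0.28 ± 0.03 in vector control arrays, a difference of 0.12 (SE 0.05, adjusted p = 0.594). The dithiol glutaredoxin genes GRX1 and GRX2 differed by 0.20 (SE 0.10, adjusted p = 0.629) and 0.17 (SE 0.11, adjusted p = 0.708). Of 9 other vacuolar metal transporter genes, 8 were highest on the 3 high-target arrays, where CCC1 was lowest, against 16.7% of all genes. VCX1 (calcium) differed by 0.25 (SE 0.09, adjusted p = 0.568), CTR2 (copper) by 0.33 (SE 0.22, adjusted p = 0.707) and ZRC1 (zinc) by 0.15 (SE 0.07, adjusted p = 0.609).

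The genes whose levels ran most like each sensing gene over the 8 arrays were picked by Pearson correlation among the 4533 genes above background on every array. These coefficients are given without a test, since the 8 points fall into the clusters described above and share array centring. AFT1 ran most like FRE1, a ferric reductase gene and Aft target (r = 0.994), KRE5 (0.993) and LYS21 (0.989). Because of the clusters, the value for FRE1 does not measure how a target follows its regulator. GRX4 ran most like the mitochondrial ribosomal protein genes MRPS16 (r = 0.999) and MRPL51 (0.998) and the peptide transporter gene PTR2 (0.997). CCC1 ran most like TIF11 (r = 0.989), RRP43 (0.983) and ERD1 (0.983), and TYW1 most like RPC10 (0.998), UTP4 (0.992) and DUS1 (0.992).

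YAP5 ran most like VPS8 (r = 0.982), RSF2 (0.976) and DOT6 (0.971), and FRA1 most like DOA4 (0.991), YMR196W (0.980) and MRL1 (0.979). BOL2 ran most like URM1 (r = 0.994), ARO4 (0.987) and ALO1 (0.982), AFT2 most like SIC1 (0.978), RME1 (0.978) and RGL1 (0.976), and GRX3 most like IRC5 (0.988), FUS3 (0.977) and DPB2 (0.974). Except for FRE1, none of these genes stood in the lists above.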

How the data were processed

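Per the labels, RNA was labelled with biotin by means of a 3' IVT kit. The deposited values are a standardized score per probe set, since each array had mean 0 and standard deviation 1 over 10715 probe sets. How the authors summarized the probes is not given in the sources used here. Scores were turned into log2 values after placing the zero of each array 0.005 below its lowest score, and each array was centred on its median gene. In the platform annotation, 5498 probe sets had a single S. cerevisiae gene. Names were updated through the RefSeq table of assembly R64, and the brightest probe set stood for a gene, which left 5449 genes.

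The 2 strains were compared by limma (version 3.58.1, R 4.3.3) with strain as the only term, two-sided, with Benjamini-Hochberg adjustment over all genes, after a test on simulated data. The number of arrays limits the precision, and p-values measure the spread between these arrays. The genes and lists were chosen with earlier results of these data known. Named are all 9 genes, up to 3 genes a list with the smallest p, FIT2, ARN1, FET3, FTR1 and TIS11 as Aft targets, and the 3 genes most like each of the 9. Of 94 list genes, 93 were measured and BOL1 was not analysed here. Alternatives were other zeros, centrings and normalization, array weights, the scores themselves, a dim filter, a replicate block, other probe set rules, an unmoderated test and single arrays left out. A planned promoter search for Yap5 and Aft motifs was not run, as no sequences were used here.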

Additional observations from a re-analysis of the deposited data

Results flagged for a closer look

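Vector control replicate 1 stood apart from the other 3 control arrays in 3 of the 9 genes. GRX4 was at -0.016 there, against 1.20 or more on the others, BOL2 at 0.75, against 0.97, and FRA1 at 0.82, against 0.27 or less. The same array stood apart in FIT2 (3.95) and in the mean deviation of iron-sulfur cluster assembly genes (-0.13), iron-sulfur enzymes (-0.23) and vacuolar metal transporters (0.31). In the Kir2.1 arrays, replicate 2 stood apart in cytosolic iron-sulfur assembly (0.13). Each had a gap above 0.829 of the range of its group of 4, where chance gives about 1 in 20. Vector control replicate 1 is the only control with high Aft target levels, and FIT2 is one of the targets that define that state. That rate therefore does not apply to genes and lists that follow the division of the arrays, and nothing is read from their flags. In all, 44 groups were looked at, and they share arrays. The Kir2.1 arrays, which were divided 2 against 2, could not be picked out in this way for genes with that division.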

How the results depend on the processing

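Under 22 alternatives, the count of 9 sensing genes called stayed at 0 except with array weights (2, and 1735 of all genes). The deposited scores called 1 gene, BEM2, named after its value was seen. Without centring, which shifts every gene by -0.13, the differences of AFT1 (-0.039), AFT2 (-0.092), YAP5 (-0.11), BOL2 (-0.086), FRA1 (-0.096) and CCC1 (-0.069) turned negative. So did AFT2 (-0.0064), YAP5 (-0.020), BOL2 (-4.4e-05) and FRA1 (-0.010) with the 75th percentile, a shift of -0.04, BOL2 (-0.025) and FRA1 (-0.018) on the scores, and BOL2 (-0.080) and CCC1 (-0.42) with array weights, where GRX4 was -1.11 and TYW1 -0.75. With the Aft target level as a covariate, AFT1 (-0.17), AFT2 (-0.024), YAP5 (-0.055), FRA1 (-0.095) and GRX4 (0.078) changed sign. On 5 arrays, without Kir2.1 replicates 1 and 3 and vector control replicate 1, the same genes did (-0.24, -0.068, -0.041, -0.057 and 0.19). With so few arrays, 0 of the 9 genes and 0 of all genes passed (smallest adjusted p = 0.633 in limma). Both settings were chosen after the data were seen. Leaving out single arrays gave AFT1 -0.13 to 0.32, AFT2 -0.016 to 0.10, YAP5 -0.031 to 0.11, BOL2 -0.018 to 0.092, FRA1 -0.048 to 0.18 and CCC1 -0.17 to 0.28, while GRX3 (-0.21 to -0.070), GRX4 (-0.63 to -0.0094) and TYW1 (-0.51 to -0.19) kept their sign. The cause was not tested. With the replicate block, 0 of the 9 genes passed (smallest adjusted p = 0.516). Same-numbered arrays correlated at 0.81, 0.69, -0.66 and 0.39, and 1 of 4 Kir2.1 arrays correlated best with its own number. Only the arrays numbered 3 differ in Aft target state. The correlations follow that state and cannot decide whether the numbers pair the arrays. Over other zeros, centrings and quantile normalization, spans ran from 1.71 to 1.77 for GRX4, 1.27 to 1.41 for AFT1, 1.24 to 1.38 for CCC1 and 1.03 to 1.23 for TYW1, but from 0.24 to 0.52 for the dim AFT2.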
